A study of Mus musculus with 10 samples.

Results

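The genes described here encode molecular chaperones and heat shock proteins, which were taken from the array by their symbols: the HSP70 (Hspa, Hsph1), HSP90, small heat shock (Hspb) and J-domain (Dnaja, Dnajb, Dnajc) families, the chaperonins of the cytosol (Tcp1 and Cct genes) and of mitochondria (Hspd1, Hspe1), the lectin chaperones Canx and Calr, the protein disulfide isomerases Pdia and the heat shock factor Hsf2. Hsf1 and Hsp90ab1 also fall under the choice, but no probe set was paired with either symbol alone in the annotation used, and they were not analysed here. Where a gene had several probe sets, the one with the highest mean over the 10 samples was used, and the gene counted as a member where it was above log2 5, an intensity of 32, in at least 4 samples. Of 86 genes with such a symbol on the array 64 passed, among 10590 genes tested in all. Of these 64, 37 belong to the cytosol and nucleus, 18 to the endoplasmic reticulum (ER) and 8 to mitochondria. Hspb11, which also carries the name of a ciliary transport protein, was left outside the compartments.

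The RNA came from fully grown mouse oocytes at the germinal vesicle stage. There were 4 samples of non-transgenic mice (replicates 1, 2, 7 and 8) and 6 of mice with an RNAi transgene (replicates 4, 5, 6, 11, 12 and 13), which lowers basonuclin (Bnc1) mRNA only in oocytes. Each sample held the RNA of about 50 oocytes of 1 mouse on 1 array, and no group received another treatment that the labels name. The strain, the age, the number of transgenic lines and the promoter of the transgene are not given in the sources used here. In such pools, fewer oocytes with a transcript and less of it per oocyte cannot be told apart. Bnc1 was between log2 11.40 and 11.76 in non-transgenic and between 3.67 and 4.26 in RNAi-transgenic samples.

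Chaperones bind unfolded or newly made proteins and let them fold, and they hold damaged ones until they are repaired or destroyed. HSP70 proteins work in cycles of ATP hydrolysis that J-domain proteins start, HSP90 matures kinases and receptors, and the barrel-shaped chaperonins enclose their clients, which in the cytosol include actin and tubulin. In the ER, calnexin and calreticulin hold glycoproteins while disulfide isomerases join their cysteines, and in mitochondria HSP60 and HSP10 fold imported proteins. A growing oocyte makes the secreted proteins of its zona pellucida and stores mRNA and protein for the embryo.

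Chaperone mRNAs changed in both directions. Of the 64 members 10 rose and 16 fell in RNAi-transgenic oocytes and 38 did not pass (limma with Benjamini-Hochberg adjustment over all 10590 genes, threshold 0.05). This is 40.6% of members, against 37.2% of all genes tested. By direction, 15.6% of members rose against 18.9% of all genes, and 25.0% fell against 18.3% of all genes. Of the 26 changes, 21 were under 0.5 on the log2 scale, and Hspa1a and Dnajb9 were the only members that changed at least 2-fold. Over all genes, 1497 of the 3940 changes were under 0.5 and 951 genes differed at least 2-fold. The median size of the fitted change, called or not, was 0.25 for members and 0.24 for all genes. The groups did not overlap for 20 members (31.2%), against 28.0% of all genes. After centring each array on its median, 8 members rose and 21 fell, while the counts over all genes moved from 1998 higher and 1942 lower to 1754 and 2518. With the difference between the 3′ and 5′ Gapdh control probe sets of each array as a covariate, 9 of the 26 calls were lost and 10 members fell, and over all genes 1616 were then higher and 1565 lower.

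The median change was 0.00 over the cytosolic, -0.10 over the ER and -0.20 over the mitochondrial members, with -0.03 over all genes tested. In the cytosol 6 of 37 rose and 7 fell (4 and 12 after median centring), in the ER 3 of 18 rose and 7 fell, and in mitochondria 1 of 8 rose and 2 fell. The called share was 35.1% in the cytosol, 55.6% in the ER and 37.5% in mitochondria, against 37.2% of all genes. Without non-transgenic replicate 1 only 4 ER members fell, and without non-transgenic replicate 8 no mitochondrial member rose. The cytosolic median was -0.10 without non-transgenic replicate 1.

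**Figure D1:**
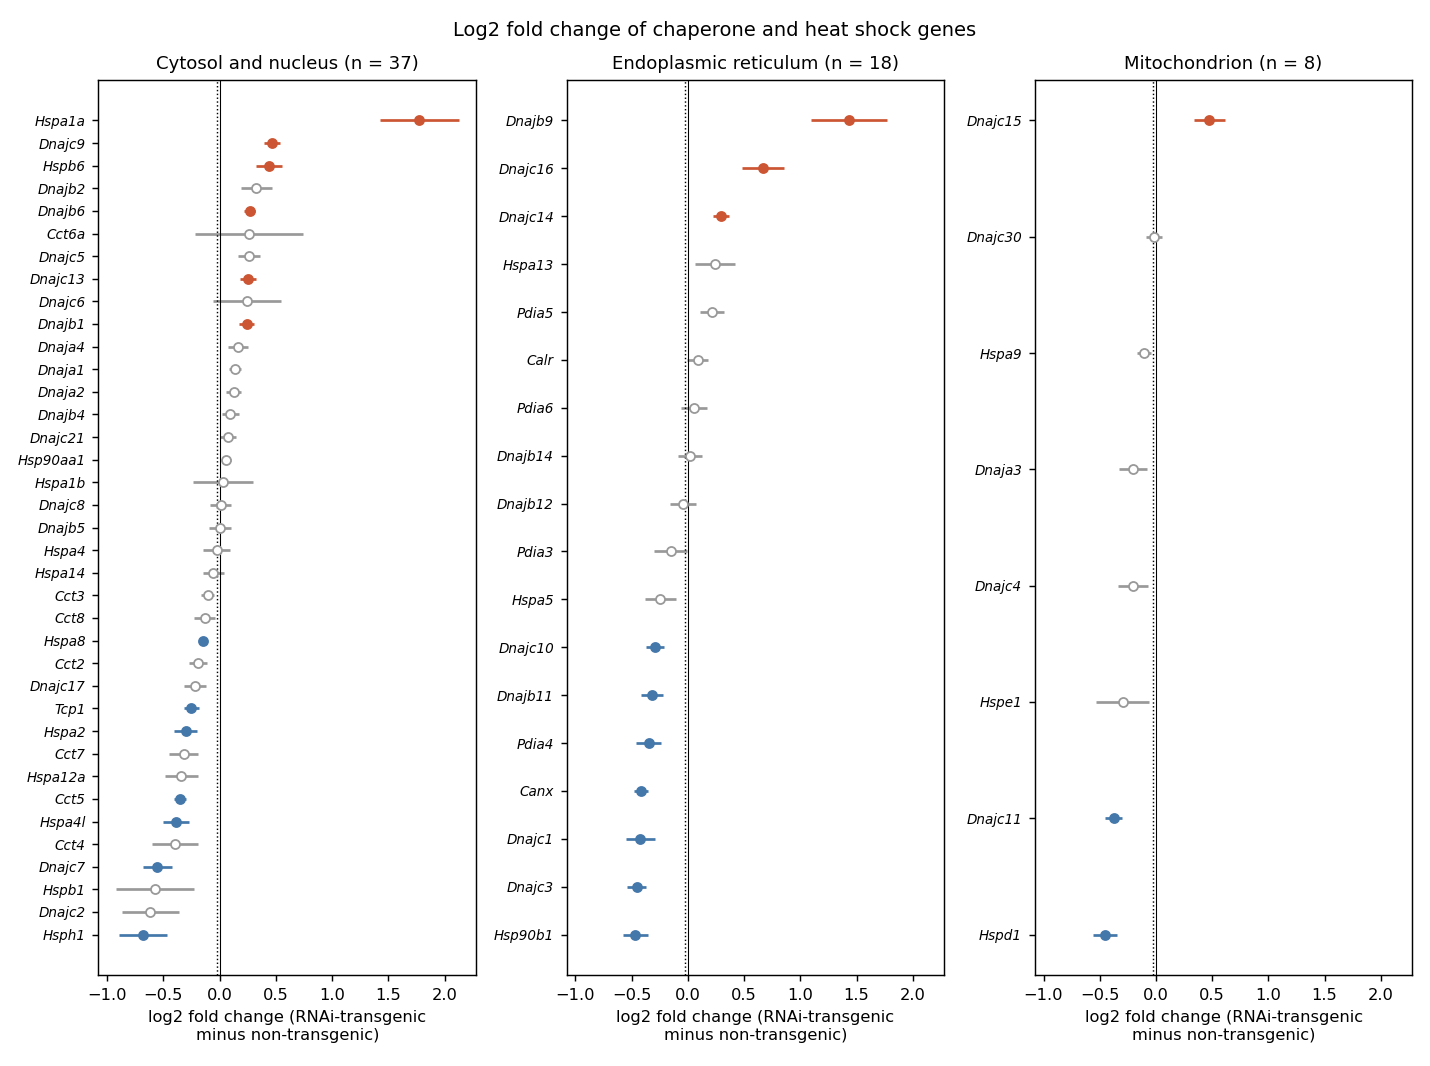
Log2 fold change (RNAi-transgenic minus non-transgenic, x axis) of the 37 cytosolic, 18 ER and 8 mitochondrial members, 1 row per gene. Bars are the standard error of the fit, filled points passed the threshold (red higher, blue lower), open points did not, and the dotted line is the median of all genes tested at -0.03; Hspa1a (1.77) and Dnajb9 (1.43) stand far to the right of the other members.

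Taken sample by sample, the sets differed in how far the groups lay apart. For each sample the median over a set of the log2 deviation from the non-transgenic mean was computed, as a description without a test. RNAi-transgenic samples ranged from -0.13 to 0.05 for the cytosolic set, from -0.30 to 0.01 for the ER set and from -0.28 to -0.07 for the mitochondrial set. Non-transgenic samples ranged from -0.02 to 0.05, from -0.03 to 0.05 and from -0.08 to 0.08. The groups thus overlapped in all 3 sets.

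**Figure D2:**
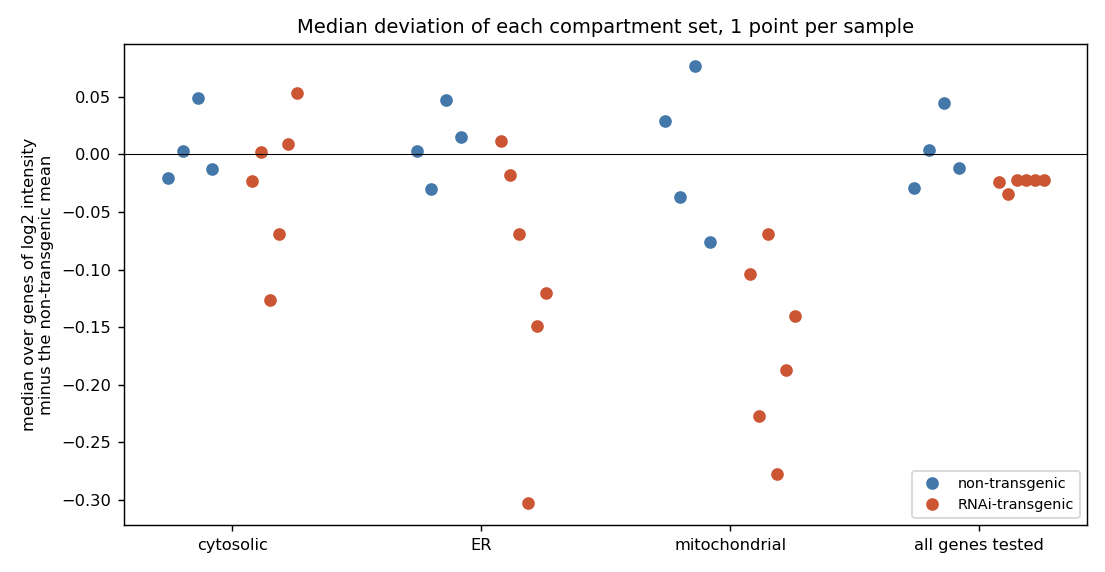
Median over the genes of each set of the log2 intensity minus the non-transgenic mean (y axis), 1 point per sample, for the cytosolic, ER and mitochondrial members and all genes tested. The 6 RNAi-transgenic points spread from -0.30 to 0.01 for the ER set and stay between -0.03 and -0.02 for all genes.

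The inducible HSP70 gene Hspa1a showed the largest change of any member. Its non-transgenic values were 8.40, 6.79, 7.61 and 8.57 (replicates 1, 2, 7 and 8, the order used throughout) and the RNAi-transgenic values had a minimum of 9.29, a median of 9.46 and a maximum of 10.59. Every RNAi-transgenic sample was above every non-transgenic one, and replicate 6 was the highest. The mean rose from log2 7.84 ± 0.81 (SD, n = 4) to 9.62 ± 0.49 (SD, n = 6), by 1.77 (SE 0.35) or 3.42-fold (limma adjusted p = 0.0025). Within the samples numbered 1 to 6 alone it missed the threshold (limma adjusted p = 0.0585).

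Hspa1b, the neighbouring copy that encodes a nearly identical protein, was read by 3 probe sets and none of them passed. The brightest was at 10.70, 11.13, 11.49 and 11.87 in non-transgenic samples and between 10.77 and 12.15, with a median of 11.26, in RNAi-transgenic samples, so the groups overlapped. Its mean difference was 0.03 (SE 0.27, limma adjusted p = 0.945), and the 2 dimmer probe sets gave 0.25 and 0.45 (limma adjusted p over probe sets 0.549 and 0.33). All 4 probe sets of the pair were highest in RNAi-transgenic replicate 6. Since RNA of such close copies can bind the same probes, which of the copies each probe set measured is uncertain. RNAi-transgenic replicate 6 also had the largest 3′ to 5′ difference of the actin control, 5.13 against 3.40 to 3.93 in the other RNAi-transgenic arrays, and the part of this in its high HSP70 values was not tested. The mean rise of Hspa1a kept its call without that sample.

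**Figure D3:**
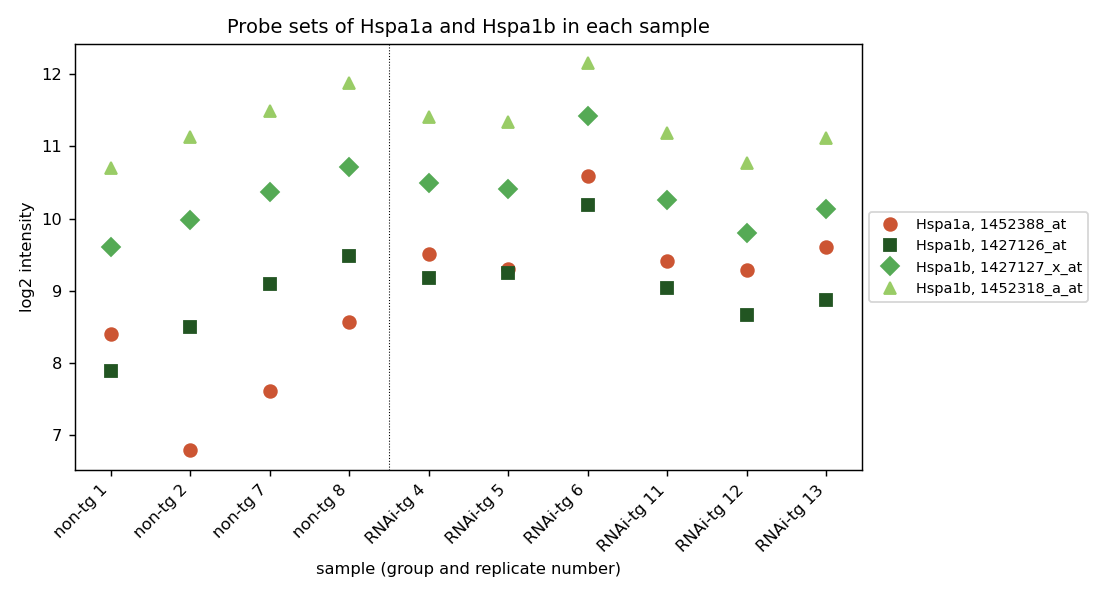
Log2 intensity (y axis) of the probe set of Hspa1a and the 3 probe sets of Hspa1b in each of the 10 samples (x axis; non-tg is non-transgenic, RNAi-tg is RNAi-transgenic). The Hspa1a points lie between 6.79 and 8.57 left of the dotted line and between 9.29 and 10.59 right of it, while the brightest Hspa1b probe set spans 10.70 to 11.87 and 10.77 to 12.15.

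The promoters of the pair are shown to let a reader see how close the copies are. In the 150 bases before each start, from RefSeq (GRCm38.p6, minus strand), 149 bases are identical, and the base that differs is in capitals.
Hspa1a, chr17:34972157-34972306: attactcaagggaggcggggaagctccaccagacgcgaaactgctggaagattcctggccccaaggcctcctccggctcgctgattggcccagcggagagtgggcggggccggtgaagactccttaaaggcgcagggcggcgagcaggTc
Hspa1b, chr17:34959239-34959388: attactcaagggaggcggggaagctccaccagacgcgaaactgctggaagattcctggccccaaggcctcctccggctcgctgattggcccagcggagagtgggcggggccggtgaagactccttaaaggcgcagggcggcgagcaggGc

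Hspa8 and Hsph1 did not follow Hspa1a. Hspa8, which encodes the main HSP70 of unstressed cells, was at 15.83, 15.87, 15.90 and 15.79 in non-transgenic and between 15.66 and 15.79 (median 15.69) in RNAi-transgenic samples. It fell by 0.15 (SE 0.04, limma adjusted p = 0.00918), the smallest change of any called member, and its 2 other measured probe sets differed by -0.21 and -0.25 without passing. The call of Hspa8 was lost when the variance was fitted without a trend on the level (limma adjusted p = 0.0809) and with the mean of its probe sets (0.0623). Hsph1, an HSP110 protein that releases nucleotide from HSP70, was at 13.16, 13.01, 13.22 and 13.69 against 11.95 to 13.04 (median 12.58). The groups met at their edges, and Hsph1 fell by 0.68 (SE 0.21, limma adjusted p = 0.0273), the largest decrease of a member that passed. Its second probe set fell by 1.02 (SE 0.18, limma adjusted p over probe sets 0.00143). The call of the brighter one was lost without non-transgenic replicate 7 or 8 or RNAi-transgenic replicate 4 or 11 (limma adjusted p from 0.0524 to 0.0861) and with the Gapdh covariate (0.239).

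Among the other HSP70 genes, Hspa4l, a relative of Hsph1 known from testis, fell by 0.39 and the germ cell gene Hspa2 by 0.30. Hspa4l lost its call without non-transgenic replicate 2 (limma adjusted p = 0.0674), and Hspa2 without any of 7 single samples (0.0593 to 0.102). Both also lost it with the Gapdh covariate (limma adjusted p = 0.0796 for Hspa4l and 0.161 for Hspa2). Hspa4 was at log2 12.32 and 12.29 in the groups (limma adjusted p = 0.88), Hspa14 at 11.71 and 11.65 and Hspa12a at 7.32 and 6.98, and none of these passed. Over all compartments, 9 of the 12 HSP70 members had a fitted change below 0, against 5719 of the 10590 genes tested.

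The cytosolic HSP90 gene Hsp90aa1 was at 14.83, 14.93, 14.99 and 15.01 in non-transgenic samples and between 14.92 and 15.06 (median 15.00) in RNAi-transgenic samples. It differed by 0.06 (SE 0.04, limma adjusted p = 0.299). Of the small heat shock proteins, Hspb6 rose by 0.44 from 6.48 ± 0.10 to 6.92 ± 0.20 (limma adjusted p = 0.0115). Hspb1 (HSP27), an actin-associated holdase, varied from 8.48 to 10.16 within the non-transgenic and from 7.95 to 9.36 within the RNAi-transgenic samples and did not pass (limma adjusted p = 0.223).

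J-domain proteins of the cytosol and nucleus, which select clients for HSP70, had positive fitted changes in 14 of 17 members. Over all genes tested, 4871 of 10590 were positive. Past the threshold, 4 of the 17 were higher and 1 lower (2 and 2 after median centring). That is 23.5% higher, against 18.9% of all genes, and 5.9% lower, against 18.3%. Dnajc9, a co-chaperone of histones H3 and H4, was at 11.95, 11.94, 11.98 and 11.83 against 12.19 to 12.55 (median 12.43). No sample overlapped, and Dnajc9 rose by 0.47 (SE 0.07, limma adjusted p = 0.000613). Dnajb6, known for holding polyglutamine proteins in solution, rose in each of its 4 probe sets, by 0.27, 0.33, 0.37 and 0.59. Dnajb1, the HSP40 of the heat shock response, rose by 0.24 and Dnajc13, an endosomal protein, by 0.25, and both lost their call after median centring (limma adjusted p = 0.0585 and 0.0676) and with the mean of their probe sets (0.132 and 0.0529).

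Dnajc7, which carries clients between HSP70 and HSP90, went the other way. Its values were 12.17, 11.92, 12.40 and 11.98 in non-transgenic samples and 11.17 to 11.77 (median 11.57) in RNAi-transgenic samples. The groups did not overlap, replicate 6 was the lowest, and Dnajc7 fell by 0.55 (SE 0.13, limma adjusted p = 0.00561). The ribosome-bound Dnajc2 differed by -0.62 (SE 0.25) and did not pass (limma adjusted p = 0.0759), while a dimmer probe set of it fell by 0.55 (SE 0.11, limma adjusted p over probe sets 0.00247) and the other differed by -0.20.

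The TRiC chaperonin is a ring of different subunits, of which 8 were measured. Cct5 and Tcp1 fell, which is 25.0% against 18.3% of all genes, and none rose (5 fell after median centring). A fitted change below 0 was found in 7 of the 8 and in 5719 of the 10590 genes tested. Cct5 was at 14.20, 14.09, 14.23 and 14.18 against 13.68 to 13.94 (median 13.84), with no overlap. It fell by 0.35 (SE 0.05, limma adjusted p = 0.000472) and kept its call in every alternative tried. Tcp1 was at 12.40, 12.19, 12.36 and 12.15 against 11.91 to 12.14 (median 12.01) and fell by 0.25 (SE 0.07, limma adjusted p = 0.0167). Its call was lost without non-transgenic replicate 7 (limma adjusted p = 0.0514). Cct2, Cct3, Cct4, Cct7 and Cct8 differed by -0.11 to -0.40 without passing at their brightest probe set, while Cct6a, at 0.26, had the widest error of any member (SE 0.48). Both dimmer probe sets of Cct2 fell, by 0.32 (SE 0.04, limma adjusted p over probe sets 0.000142) and 0.41 (SE 0.08, 0.00176).

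**Figure D4:**
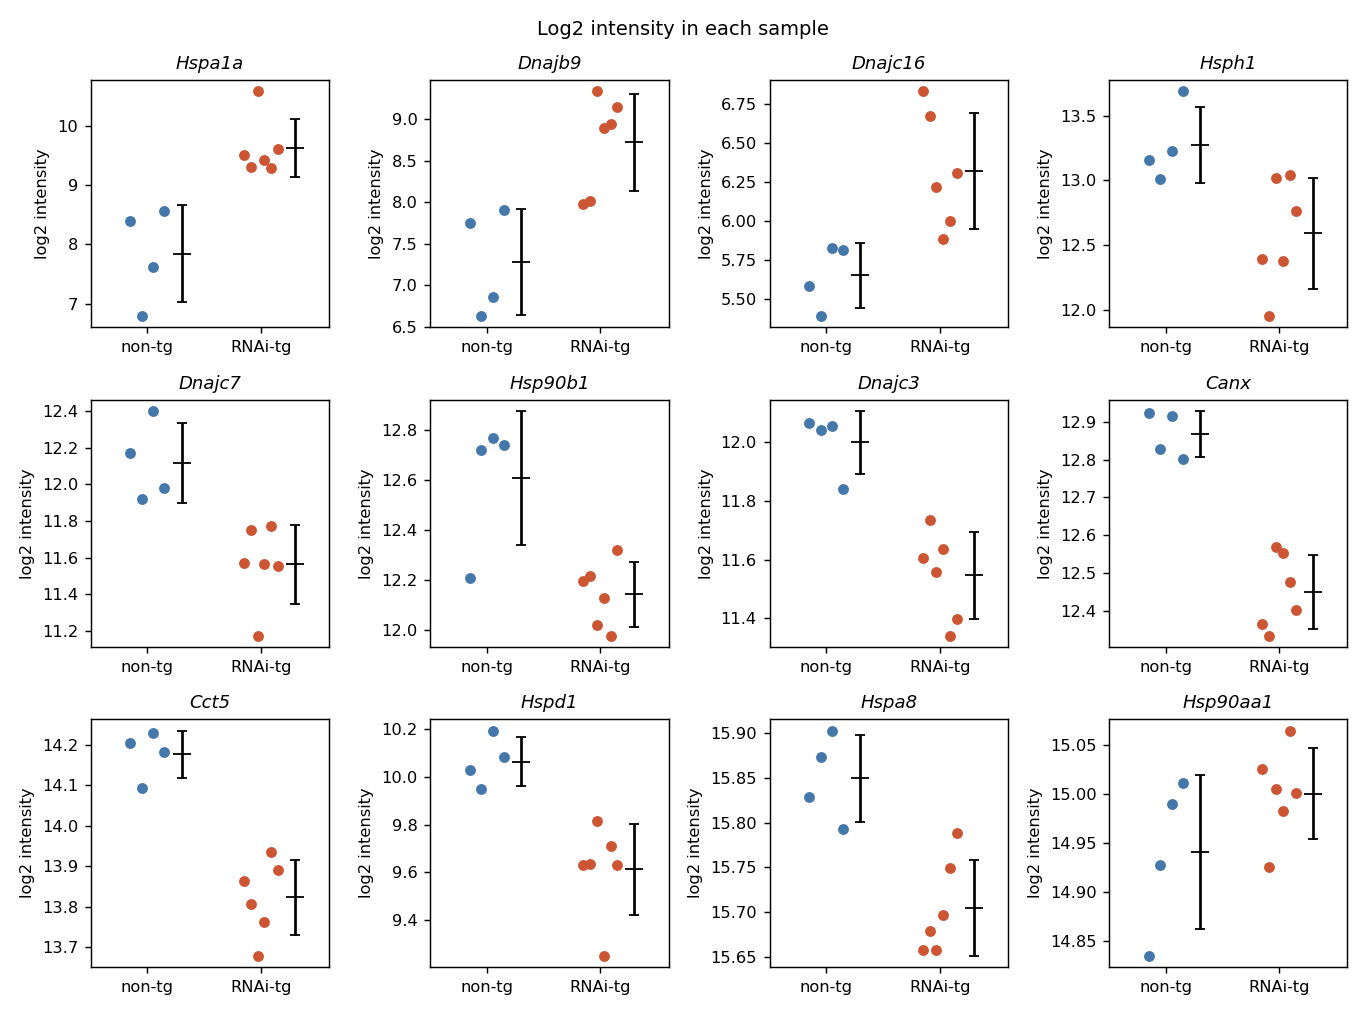
Log2 intensity (y axis, its own scale in each panel) of 12 members in the 4 non-transgenic (blue, non-tg) and 6 RNAi-transgenic samples (red, RNAi-tg), 1 point per sample, with the mean and SD in black. Hspa1a, Dnajb9 and Dnajc16 are higher in all RNAi-transgenic samples, Dnajc7, Dnajc3, Canx, Cct5, Hspd1 and Hspa8 are lower in all of them, and Hsph1, Hsp90b1 and Hsp90aa1 overlap.

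Of the 9 ER members outside the J-domain family, 3 fell and none rose (limma), where 18.3% of all genes fell and 18.9% rose. Calnexin (Canx), the membrane lectin that holds new glycoproteins, was at 12.92, 12.83, 12.92 and 12.80 against 12.33 to 12.57 (median 12.44). All RNAi-transgenic samples were below all non-transgenic ones. Canx fell by 0.42 (SE 0.06, limma adjusted p = 0.000313), and its 2 dimmer probe sets fell by 0.29 and 0.70. Calreticulin (Calr), its soluble relative, was at 13.63, 13.35, 13.63 and 13.74 against 13.43 to 13.90 (median 13.65) and differed by 0.09 (SE 0.09, limma adjusted p = 0.504).

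Hsp90b1 (GRP94), the HSP90 of the ER, was at 12.21, 12.72, 12.77 and 12.74 against 11.98 to 12.32 (median 12.16). Only non-transgenic replicate 1 lay among the RNAi-transgenic values. Hsp90b1 fell by 0.47 (SE 0.11, limma adjusted p = 0.00798), and its second probe set fell by 0.94 (SE 0.22). In that second probe set non-transgenic replicate 1 was instead the highest of all samples, at 12.12. Hspa5 (BiP), the HSP70 of the ER, was at 12.89, 12.52, 12.51 and 12.81 against 12.10 to 12.93 (median 12.38) and did not pass at -0.24 (SE 0.14, limma adjusted p = 0.2). RNAi-transgenic replicate 6 held its highest value, and without that sample Hspa5 passed at -0.34 (limma adjusted p = 0.027). One of its other probe sets also fell, by 0.26 (limma adjusted p over probe sets 0.0291). Of the disulfide isomerases Pdia4 fell by 0.35. Its call was lost without any 1 of 4 samples (limma adjusted p from 0.0549 to 0.0815) and with the Gapdh covariate (0.156). Pdia3, Pdia5 and Pdia6 differed by -0.15, 0.22 and 0.06 without passing.

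The J-domain proteins of the ER assist BiP from inside it or, as membrane proteins such as Dnajb12, Dnajb14 and Dnajc14, turn their J domain to the cytosol. Of the 9 measured, 3 rose (33.3%) and 4 fell (44.4%), against 18.9% and 18.3% of all genes. Dnajb9 (ERdj4), known as a target of the ER stress response and a repressor of the sensor Ire1, was at 7.75, 6.63, 6.85 and 7.90 in non-transgenic samples. In RNAi-transgenic samples it was between 7.97 and 9.34 (median 8.92), above every non-transgenic value though by little at the edge. It rose by 1.43 (SE 0.34) or 2.70-fold (limma adjusted p = 0.00671), and missed the threshold within the samples numbered 1 to 6 (limma adjusted p = 0.171). Dnajc16 rose by 0.67 (SE 0.19, limma adjusted p = 0.0161) from 5.58, 5.39, 5.83 and 5.82 to between 5.89 and 6.83 (median 6.26). Its other probe set, close to the filter level at log2 5.02 and 4.93, differed by -0.09 (limma adjusted p over probe sets 0.742), and without non-transgenic replicate 2 the call of Dnajc16 was lost (0.0527). Dnajc14 rose by 0.29, with all 3 of its probe sets above 0.

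Dnajc3 (P58IPK), which inhibits the kinase PERK and assists BiP, fell in contrast. It was at 12.07, 12.04, 12.05 and 11.84 against 11.34 to 11.74 (median 11.58), with no overlap. The decrease was -0.45 (SE 0.09, limma adjusted p = 0.00188), and all 5 of its probe sets were below 0, from -0.30 to -0.71, of which 3 passed. The disulfide reductase Dnajc10 fell by 0.29 (a call lost with the Gapdh covariate, limma adjusted p = 0.0515, and with the mean of its probe sets, 0.0796), the membrane protein Dnajc1 by 0.42 and the secretory cofactor Dnajb11 by 0.32. Dnajc1 and Dnajb11 each lost the call without any 1 of 4 samples, non-transgenic replicate 1 among them for both (limma adjusted p = 0.069 and 0.0751). Both also lost it with the Gapdh covariate (limma adjusted p = 0.123 and 0.0623).

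ER chaperone genes are known to share an ER stress response element, to which the factors ATF6 and NF-Y bind. The letters CCAAT, then any 9 bases, then CCACG were searched on both strands in RefSeq promoter windows of 250 bases before to 50 bases after the start, which matched 55 of the 64 members by gene number. It occurred in 37 of 27025 genes with a window (0.137%), in 17 of 8614 tested genes with a window (0.197%) and in 6 members, all of the ER. Of these 6, Canx, Dnajc3 and Hsp90b1 fell and Hspa5, Calr and Pdia6 did not pass. Since the element is known from ER chaperone genes, finding it in them is a description and not a test. No such match was found for Dnajb9, Dnajc16 and Dnajc14, the ER members that rose, which says nothing about other positions. A member without a window could not show a match. The elements are printed below (GRCm38.p6, in the direction of the gene) for these 6 genes, with the element and its spacer in capitals, and Hsp90b1 has a forward and a reverse copy.
Canx, chr11:50325780-50325838, minus strand: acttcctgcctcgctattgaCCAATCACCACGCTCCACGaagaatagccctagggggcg
Dnajc3, chr14:118937807-118937865, plus strand: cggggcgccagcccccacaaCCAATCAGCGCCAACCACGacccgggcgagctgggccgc
Hsp90b1, chr10:86705513-86705676, minus strand: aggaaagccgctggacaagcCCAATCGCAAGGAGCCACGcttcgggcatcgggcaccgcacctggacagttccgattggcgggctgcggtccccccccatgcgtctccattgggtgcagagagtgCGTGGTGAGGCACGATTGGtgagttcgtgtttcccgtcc
Hspa5, chr2:34772005-34772063, plus strand: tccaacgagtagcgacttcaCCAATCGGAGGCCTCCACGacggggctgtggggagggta
Calr, chr8:84847055-84847113, minus strand: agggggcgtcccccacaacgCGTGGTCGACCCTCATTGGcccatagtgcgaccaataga
Pdia6, chr12:17266471-17266529, plus strand: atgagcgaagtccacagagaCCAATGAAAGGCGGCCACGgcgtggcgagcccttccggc

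Of the mitochondrial chaperones, Hspd1 (HSP60) was at 10.03, 9.95, 10.19 and 10.08 in non-transgenic and between 9.25 and 9.82 (median 9.63) in RNAi-transgenic samples. The groups did not overlap, and replicate 11 was the lowest. Hspd1 fell by 0.45 (SE 0.11, limma adjusted p = 0.00678), and its call was lost with the Gapdh covariate (limma adjusted p = 0.0546). Its partner Hspe1 (HSP10) was at 12.11, 11.24, 11.87 and 11.84 against 10.86 to 12.07 (median 11.57) and did not pass at -0.30 (SE 0.24, limma adjusted p = 0.362). Hspa9 (mortalin), the HSP70 of the matrix, was at 12.07, 12.10, 11.97 and 12.07 against 11.79 to 12.08 (median 11.97) and did not pass at -0.10 (SE 0.06, limma adjusted p = 0.212).

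Dnajc11, a J-domain protein at the cristae junctions, was at 13.07, 12.87, 12.92 and 12.87 against 12.47 to 12.82 (median 12.51). RNAi-transgenic replicate 4 lay apart at the top and the groups still did not overlap. Dnajc11 fell by 0.38 (SE 0.08, limma adjusted p = 0.00262). Dnajc15, a J-domain protein of the inner membrane, rose by 0.48 (SE 0.14, limma adjusted p = 0.0212). That call was lost without non-transgenic replicate 8 (limma adjusted p = 0.0625) and with the Gapdh covariate (0.128). Dnaja3, Dnajc4 and Dnajc30 differed by -0.20, -0.20 and -0.02 without passing.

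The heat shock element, inverted repeats of GAA bound by heat shock factors, was searched as GAA, any 2 bases, TTC, any 2 bases and GAA on both strands of the same windows. It occurred in 179 of 27025 genes (0.662%), in 49 of 8614 tested genes with a window (0.569%) and in 4 members. Of these, Dnajb6 rose, Hspd1 and Hsph1 fell, and Hspe1 did not pass. Only exact matches were counted. The lack of one in other members, Hspa1a among them, says nothing about elements of another form or at other positions. Hspd1 and Hspe1 lie head to head, and the windows share the 2 overlapping matches shown for Hspd1. In Hsph1 the match lies just after the start and is not shown. The stretches of a gene that fell and of one that rose are printed, with the matched bases in capitals.
Hspd1, chr1:55088039-55088096, minus strand: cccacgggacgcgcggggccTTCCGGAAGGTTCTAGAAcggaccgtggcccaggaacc
Dnajb6, chr5:29735832-29735884, plus strand: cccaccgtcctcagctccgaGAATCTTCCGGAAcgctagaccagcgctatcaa

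Neither probe set of the heat shock factor Hsf2 reached the filter level in any sample (3.01 ± 0.11 in non-transgenic and 2.97 ± 0.07 in RNAi-transgenic oocytes for the brighter one). Hsf2 is 1 of 22 genes with a matching symbol that did not pass the filter, and 19 of the others were likewise at or below log2 5 in every sample at their brightest probe set. They include the muscle genes Hspb2, Hspb3 and Hspb7, the testis genes Hspa1l, Cct6b, Dnajb3, Dnajb8 and Dnajb13, and the pancreatic isomerase Pdia2. Nearest outside the filter was Dnajc18, where 3 samples were above the level and the next was at 4.99, and nearest inside was Dnajb14, whose corresponding sample was at 5.73. No member was at or below the level in any sample, so no member passed only through 1 group.

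More than 1 probe set passed the filter for 41 members, and in 34 of them all probe sets gave the same sign. Among the 14 such members that changed, Dnajc16 was the exception. Of the members that did not pass, Cct2, Dnajc2 and Hspa5 had a dimmer probe set that fell, and Dnaja1 and Dnajc21 had one that rose, by 0.39 and 0.71 (limma adjusted p over probe sets 0.00648 and 0.000247). The spread within a group was widest for Cct6a (SD 0.90 in non-transgenic and 0.83 in RNAi-transgenic samples), Hspa1a (0.81 and 0.49), Hspb1 (0.69 and 0.58) and Dnajb9 (0.64 and 0.58). It was narrow for Hspa8 (0.05 in both) and Dnajb6 (0.04 and 0.08), so changes of very different size passed.

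Folding genes outside these families were followed from 3 lists, beside 18.9% of all genes that rose and 18.3% that fell. Of 23 tested cytosolic co-chaperones and prefoldins 2 rose and 9 fell, with a median of -0.25 (2 and 13 after median centring). Ahsa1, which activates the ATPase of HSP90, fell by 0.41 (SE 0.08, limma adjusted p = 0.00326), while its relative Ahsa2 rose by 0.48 (SE 0.11, limma adjusted p = 0.00602). The ubiquitin ligase Stub1 (CHIP) and the nucleotide exchange factor Bag1 each fell by 0.36, and Cdc37l1 rose by 0.44, a call lost with the mean of its probe sets (limma adjusted p = 0.267).

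Of 28 genes of ER folding and the unfolded protein response 1 rose and 6 fell, with a median of -0.13 (1 and 11 after median centring). The oxidase Ero1a rose by 0.62 and its relative Ero1b fell by 0.30, a call lost with the mean of its probe sets (limma adjusted p = 0.212) and with the Gapdh covariate (0.0703). The mannosidase-related Edem2 fell by 0.48 and Atf4, the factor translated under stress, by 0.27. Ero1a lost its call without non-transgenic replicate 1 or 2 (limma adjusted p = 0.0661 and 0.0509), and Atf4 without non-transgenic replicate 2 or 8 (0.0882 and 0.0934). Both also lost it with the Gapdh covariate (limma adjusted p = 0.0941 for Ero1a and 0.086 for Atf4). Of 13 mitochondrial genes 2 rose and 2 fell. The iron-sulfur J-protein Hscb fell by 0.86 (SE 0.16, limma adjusted p = 0.00148) and the protease Lonp1 by 0.51, while the proteases Clpp and Htra2 rose by 0.67 and 0.31. The call of Htra2 was lost with the Gapdh covariate (limma adjusted p = 0.0841).

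Oocyte markers were measured as a check of the labelled cell type, and all 10 passed the filter, such as Zp3 at log2 14.61 and 14.59 and Gdf9 at 14.26 and 14.29 in the groups. Of these 10, Kit rose by 0.78 (limma adjusted p = 9.1e-05), Figla fell by 0.54 (limma adjusted p = 0.0153) and 8 did not pass. Of 7 tested granulosa markers 2 rose and 0 fell (limma), where 18.9% of all genes rose and 18.3% fell. Fshr rose by 1.24, from a mean of log2 5.51 to 6.75, and Cyp11a1 by 1.57, from 5.50 to 7.07. The summed intensity of the 7 was 1651 to 1852 in non-transgenic and 1573 to 2633 in RNAi-transgenic samples. Inha, Gja1 and Kitl differed by 0.59, 0.55 and 0.06, and Gata4 and Nr5a2 by -0.37 and -0.07, without passing the threshold. Amh, Foxl2, Inhba, Star, Ptx3, Has2 and Tnfaip6 did not pass the filter. Of 3 stroma and vessel markers 2 rose, Kdr by 1.19 and Dcn by 1.11, and 1 fell, Acta2 by 0.50. Their sums were 118 to 184 against 205 to 271. Another 5 of that list did not pass the filter. Of these, Pdgfrb and Col1a1 reached log2 6.04 and 5.08 in their highest sample and Pdgfra, Col1a2 and Pecam1 stayed below the level. Among blood and immune markers, Laptm5 rose and Srgn fell, with sums of 2720 to 3061 against 2054 to 3169, and Ptprc was at most at log2 2.51. The Gapdh 3′ to 5′ difference was 4.13, 3.72, 4.00 and 4.34 in non-transgenic samples. In RNAi-transgenic samples it was 4.12 in replicate 6 and 3.63 to 3.75 in all others. It thus followed the groups in most arrays, and a fit with it as a covariate cannot fully separate it from the group. The part of these markers in the chaperone results was not tested. Non-transgenic replicate 1 deviated most from its group, with a mean squared deviation of 0.111 against 0.0417 to 0.0669 in the other samples.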

How the data were processed

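The values deposited by the authors are intensities of probe sets, made with GCRMA per the submitters' processing notes (version and genome build not given in the sources used here). GCRMA estimates background from the bases of each probe, puts the probe values of all arrays on 1 distribution and pulls dim probe sets to a common floor. Small values and their folds are therefore uncertain. The medians of the deposited arrays still differed, from 17.46 in non-transgenic replicate 7 to 20.08 in non-transgenic replicate 1. The deposited intensity values were linear and were put on the log2 scale. Of 45101 probe sets, 34945 had 1 gene in the platform annotation, 932 had several and were left out, and 64 were array controls. Groups were compared with limma 3.58.1 (lmFit, eBayes with a trend) in R 4.3.3 over 10590 genes, and tested on simulated data. Adjusted p over probe sets comes from the same fit on 16807 probe sets. The number of arrays limits the precision.

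The members, the compartments and the gene lists were chosen with earlier results of these data known. Members named with sample values are those past 0.05 with a change of at least 0.5, the 2 brightest of each compartment, called TRiC subunits and a few fixed by name. Others are named for a direction, and the values of Hspa1b, Hspb1, Hspe1, Dnajc9, Dnajc3 and Hsp90b1 were added after they were seen. Samples come from different mice. Alternatives were other filters, scalings, variance models, covariates, subsets of replicate numbers and each sample left out. Leaving out non-transgenic array 1 with RNAi-transgenic array 6, and all alternatives for the compartment counts and the other folding genes, were added after seeing the data. Sequences are from RefSeq. Figures were drawn with matplotlib 3.10.9.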

Additional observations from a re-analysis of the deposited data

Results flagged for a closer look

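For the 30 members that changed or were named by rule, both groups were searched for a sample far from the rest of its group. Far was judged by the gap to the nearest other sample over the range of the group. Of 60 groups in all, 6 held such a sample. Chance gives about 1 in 20 for unrelated groups, but these genes share the same 10 arrays, so the 6 cannot be judged against that rate. Hspa1a in RNAi-transgenic replicate 6 was at log2 10.59, with the other samples of the group from 9.29 to 9.60. Hsp90b1 in non-transgenic replicate 1 was at 12.21, with the others from 12.72 to 12.77. In the second probe set of Hsp90b1 the same sample was instead the highest, at 12.12. Dnajc3 in non-transgenic replicate 8 was at 11.84, below 12.04 to 12.07. Dnajc7 in RNAi-transgenic replicate 6 was at 11.17, below 11.55 to 11.77. Hspd1 in RNAi-transgenic replicate 11 was at 9.25, below 9.63 to 9.82. Dnajc11 in RNAi-transgenic replicate 4 was at 12.82, above 12.47 to 12.55.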

How the results depend on the processing

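No paired analysis was possible because the groups share no replicate number. Of the 26 called members 17 kept the call whichever sample was left out, and Canx, Cct5, Dnajc3 and Dnajc9 kept it under every alternative. Leaving out single samples gave 9 to 11 members higher and 12 to 18 lower, with 6 to 7 and 5 to 9 in the cytosol, 2 to 4 and 4 to 8 in the ER, and 0 to 1 and 2 to 2 in mitochondria (limma), and 18 to 22 of the other folding genes called against 22. The medians ranged from -0.10 to 0.0178 (cytosolic), -0.15 to -0.04 (ER) and -0.26 to -0.13 (mitochondrial).

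Within samples numbered 1 to 6, which are fewer, 2 members were higher and 4 lower, and 5 other folding genes were called (limma). By compartment these were 1 and 2 cytosolic, 1 and 2 ER, and 0 and 0 mitochondrial. Over all 10590 genes, 1207 were higher and 706 lower in these samples. Within samples numbered 7 to 13, 5 members were higher and 10 lower (ER 1 and 3, mitochondrial 0 higher), and 9 other folding genes were called. Over all 10590 genes, 1241 were higher and 1023 lower in these samples. At adjusted p under 0.01, 5 members were higher and 8 lower (the counts over all genes at that threshold are not given here). With the Gapdh covariate, 10 were lower (ER 4, mitochondrial 1, and 0 mitochondrial higher), and the cytosolic and mitochondrial medians moved to -0.0707 and -0.12. After median centring, 12 cytosolic members were lower and that median was -0.0609. Above log2 7, where fewer genes remain, the ER median was -0.24. Without non-transgenic array 1 and RNAi-transgenic array 6 together, ER members lower came to 4 and mitochondrial members higher to 0. Without non-transgenic replicate 1, the cytosolic median was -0.10. The second probe set of Dnajc16 turned its sign (-0.0915). The causes of these differences were not tested.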
